A study of Mus musculus with 2 samples.

Results

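Aldh1a1, Aldh1a7 and Adh1 are dehydrogenase genes of retinoid metabolism, and their levels are described here in single adrenocortical cells of the mouse. They are 3 of the 31057 features counted, were found by gene symbol in both libraries, and were chosen from the levels seen in these same data. Their own levels are therefore given as a description, without a test. Vitamin A is stored as retinol and its esters. Alcohol dehydrogenases such as Adh1, a class I enzyme that also takes ethanol, and the retinol dehydrogenases oxidise retinol reversibly to retinaldehyde. Aldh1a1, Aldh1a2 and Aldh1a3 then oxidise retinaldehyde irreversibly to retinoic acid, which binds nuclear receptors of the RAR and RXR families and is cleared by Cyp26 enzymes. Aldh1a7 is a close rodent paralog of Aldh1a1 with little reported activity on retinaldehyde.

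The cells came from adrenal glands of male mice aged 15 weeks with SF1-Cre and the Rosa mTmG reporter, which were labelled wild type apart from these alleles. SF1-Cre is active in steroid-producing lineages, and recombination of the reporter replaces membrane tdTomato with membrane GFP. The study took 26 adrenals, live nucleated cells were sorted by dyes, and a 10x droplet kit that reads the 3′ ends of transcripts was used. No gate on GFP is named in the labels. The series has 1 group of 2 libraries, and the labels do not say how the animals were divided between them. Any p-value printed below thus sets a difference between cell groups only against how such differences vary between these libraries, which may be technical.

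The deposited matrices held 92905273 unique molecular identifiers (UMIs) in 5040 barcodes for library 1 and 28023733 UMIs in 2288 barcodes for library 2. Filtering kept 4689 cells with a median of 18198 UMIs and 1970 cells with a median of 14822.5 UMIs. The libraries shared 4 barcodes. Cortical cells, those with steroidogenic transcripts and fewer than 3 leukocyte UMIs, numbered 4584 and 1886. They were grouped by Cyp11b1, which makes corticosterone and marks the zona fasciculata, and by Cyp11b2, which makes aldosterone and marks the zona glomerulosa, both as UMIs per 1000000 UMIs of the cell (CPM). Cyp11b1-high cells had at least 2000 CPM of Cyp11b1, Cyp11b1-intermediate cells had 500 to under 2000, and low cells had under 500, all with Cyp11b2 under 200 CPM. Cyp11b2-high cells had at least 200 CPM of Cyp11b2 with Cyp11b1 under 500, and cells past both limits formed a small group called both.

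In the order library 1 and library 2, there were 208 and 241 Cyp11b1-high cells, 628 and 248 intermediate cells, 23 and 14 cells with both, 3220 and 1107 low cells and 505 and 276 Cyp11b2-high cells. The fasciculata transporter gene Abcb1b stood at 714 and 939 CPM in Cyp11b1-high cells, against 20.5 and 16.9 CPM in Cyp11b2-high cells. Of the Abcb1b UMIs of Cyp11b1-high cells, 1646 of 2056 and 1889 of 2852 lay in 14 cells per library with at least 10 Aldh1a1 UMIs. Cyp11b1-high cells with no Aldh1a1 UMI held 96.9 and 325 CPM of Abcb1b, and 1 such cell of library 2 had 341 of their 820 UMIs. The glomerulosa gene Vsnl1 stood at 53.1 and 64.9 CPM in Cyp11b1-high cells, against 758 and 1023 CPM in Cyp11b2-high cells. Wnt4, Dab2 and Agtr1b, also listed for the glomerulosa, were lower in Cyp11b1-high cells in both libraries as well. Hsd3b6 of that list was at 221 and 181 CPM, against 224 and 280 CPM. Shh did not separate the groups, at 186 and 307 CPM in Cyp11b1-high cells, against 215 and 195 CPM in Cyp11b2-high cells. Akr1b7, also listed for the fasciculata, was not lower in Cyp11b2-high cells than in intermediate cells, so the groups are called by their Cyp11b levels and not as zones. The medullary genes Th, Dbh and Pnmt and the adipocyte gene Adipoq had no UMI in the cortical groups, and the 6 leukocyte genes summed to between 0 and 2.84 CPM there. Plin1, a lipid droplet gene on the adipocyte list, stood at 93.1 to 190 CPM and the endothelial receptor gene Kdr at 0 to 17.2 CPM in those groups, and their part in the results was not tested. Within 10% of the Cyp11b1 limit of 2000 CPM lay 30 and 23 cells inside and 45 and 24 cells outside.

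Aldh1a1 was concentrated in cells with high Cyp11b1 and was close to zero where Cyp11b2 was high. Cyp11b1-high cells held 355 CPM (exact 95% Poisson interval 333 to 377) in library 1 and 356 CPM (335 to 378) in library 2. Intermediate cells held 64.3 CPM (59.7 to 69.2) and 268 CPM (250.2 to 286). Low cells held 0.766 and 1.21 CPM, and Cyp11b2-high cells held 1 UMI in each library, or 0.0960 and 0.226 CPM. The group called both had 1 UMI in library 1 and none in library 2. All intervals cover counting error only.

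The summed Aldh1a1 levels of Cyp11b1-high cells were close between libraries, whereas those of intermediate cells were not. In Cyp11b1-high cells, 14 cells per library with at least 10 Aldh1a1 UMIs held 973 of 1022 and 1018 of 1081 UMIs. Among intermediate cells there were 10 such cells in each library, with 680 and 868 UMIs. They lay among 628 intermediate cells in library 1 and 248 in library 2, so the levels differ partly by the number of other cells. The ratio of Cyp11b1-high over intermediate cells was 5.52 (95% counting interval 5.01 to 6.08) in library 1 and 1.33 (1.22 to 1.46) in library 2. At these limits the order of the summed levels was thus shared but not the size of the step. The intervals leave out the spread between cells, so they do not decide whether that order would recur. With halved Cyp11b limits the ratio was 45.2 (34.0 to 61.4) and 993 (178 to 39258). With doubled limits it was 0.102 (0.0466 to 0.194) and 0.263 (0.217 to 0.316), below 1 in both libraries, so the order of these groups depended on the limits. The doubled-limit ratio of library 1 rests on 9 Aldh1a1 UMIs in 34 Cyp11b1-high cells. The ratio of Cyp11b1-high over low cells was 463 and 295. Against Cyp11b2-high cells the ratio was 3696 (662 to 146124) and 1578 (283 to 62369), wide because each rests on 1 UMI in the denominator. As a log2 difference this was 11.2 ± 0.87 (mean ± SD, n = 2 libraries). With 1 UMI in each denominator, this SD mostly follows the total UMIs of the Cyp11b2-high cells, 10414576 and 4431101. At the lower end, the intervals of low and Cyp11b2-high cells overlapped in library 2 and did not in library 1.

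**Figure D1:**
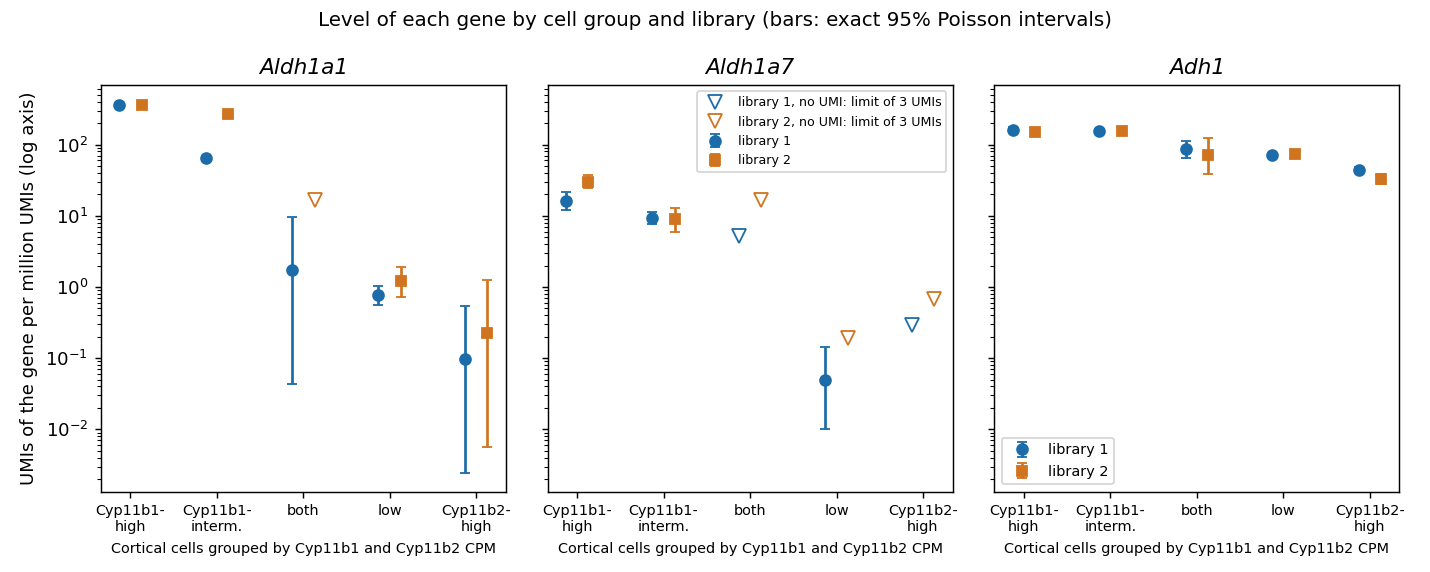
Level of Aldh1a1, Aldh1a7 and Adh1 in CPM (log axis) in the 5 cortical groups, for library 1 (circles) and library 2 (squares), with exact 95% Poisson intervals; open triangles mark groups without a UMI at the level of 3 UMIs. Aldh1a1 and Aldh1a7 lie at or below 1.21 CPM in low and Cyp11b2-high cells, while Adh1 stays between 32.7 and 160 CPM in every group.

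A small number of cells carried nearly all Aldh1a1 transcripts. Of the Cyp11b1-high cells, 31 of 208 (14.9%, exact 95% Clopper-Pearson interval 10.4 to 20.5) and 34 of 241 (14.1%, 9.97 to 19.2) had at least 1 UMI. Of the Cyp11b2-high cells, 1 of 505 (0.198%) and 1 of 276 (0.362%) had one. Among leukocytes, which should lack adrenocortical transcripts, 0 of 82 and 1 of 71 cells had an Aldh1a1 UMI. Median depths were 15263 and 13408 UMIs in Cyp11b1-high cells and 4399.5 and 4028 UMIs in leukocytes. The count of 0 allows a share of up to 3.66% of leukocytes.

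Over all cortical cells, Aldh1a1 was seen in 77 of 4584 and 54 of 1886 cells. In each library 25 cells with at least 10 UMIs held most of it, 92.7% of all Aldh1a1 UMIs in library 1 and 96.3% in library 2. The richest Cyp11b1-high cell had 238 UMIs in library 1 and 157 in library 2. The 3 richest cells supplied 47.7% and 36.7% of the Aldh1a1 UMIs of the Cyp11b1-high group, and 49.1% and 55.5% of those of the intermediate group. The group levels of Aldh1a1 are thus averages over a minority of rich cells and a majority with none.

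After each cell was thinned to 5000 UMIs, which left out 47 and 59 shallower Cyp11b1-high cells and 24 and 40 Cyp11b2-high cells, 11.8% and 11.5% of Cyp11b1-high cells and no Cyp11b2-high cell had an Aldh1a1 UMI. The deeper Cyp11b2-high cells, with medians of 20865 and 17958 UMIs before thinning, therefore did not show more of it at equal depth.

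Along finer steps of Cyp11b1, among cells with Cyp11b2 under 200 CPM, the share with an Aldh1a1 UMI stayed at or below 1.61% up to 1000 CPM of Cyp11b1. It reached 5.66% and 8.66% at 1000 to 2000 CPM and 16.7% and 14.1% at 2000 to 4000 CPM. Above 4000 CPM the share was 5.88% (2 of 34 cells) in library 1 and 14.1% (11 of 78 cells) in library 2. The summed level was highest below the top of the Cyp11b1 range. It stood at 411 CPM in the 2000 to 4000 step of library 1, against 21.8 CPM above 4000, and at 519 CPM in the 1000 to 2000 step of library 2, against 128 CPM above 4000.

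**Figure D2:**
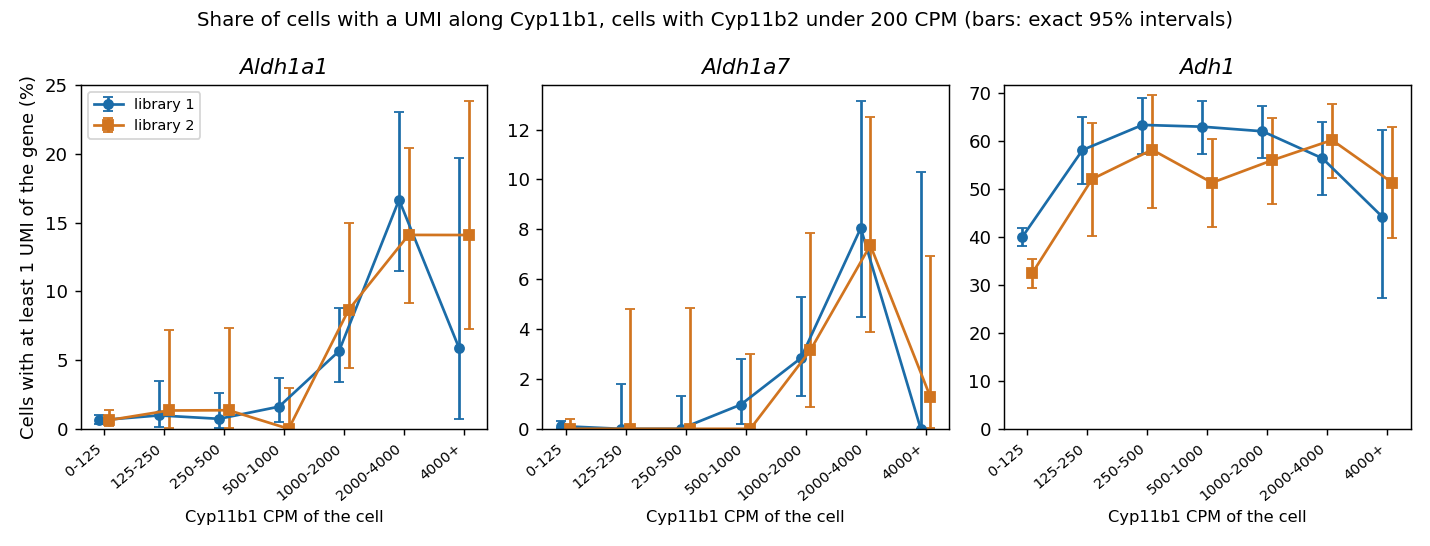
Share of cells with at least 1 UMI of each gene (%) in 7 steps of Cyp11b1 CPM from low to high, in cells with Cyp11b2 under 200 CPM; lines are libraries and bars are exact 95% intervals. Aldh1a1 and Aldh1a7 are rare below 1000 CPM of Cyp11b1 and more frequent from 1000 to 4000 CPM. Aldh1a1 has shares of 16.7% and 14.1% at 2000 to 4000 CPM, and above 4000 CPM Aldh1a7 is in 0 of 34 and 1 of 78 cells. Adh1 is already at 58.0% and 52.0% in the step below 250 CPM, the next to lowest.

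Aldh1a7, the neighbouring paralog, followed the same groups at lower counts. Cyp11b1-high cells held 47 UMIs or 16.3 CPM (12.0 to 21.7) in library 1 and 91 UMIs or 29.97 CPM (24.1 to 36.8) in library 2, against none in Cyp11b2-high cells. With the Cyp11b2-high cells set to 3 UMIs per library, Aldh1a7 was at least 56.7-fold and at least 44.3-fold higher in Cyp11b1-high cells. Intermediate cells had 9.40 and 8.93 CPM, the low cells had 3 UMIs in library 1 and none in library 2, and the group called both had none. The ratio of Cyp11b1-high over intermediate cells was 1.74 (1.20 to 2.47) and 3.35 (2.19 to 5.29). Halved limits gave 23.6 in library 1 and at least 20.4 in library 2. Doubled limits left no Aldh1a7 UMI in Cyp11b1-high cells of library 1 and gave a ratio of 0.171 in library 2, so the order turned there too.

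Aldh1a7 was found in 14 of 208 (6.73%) and 13 of 241 (5.39%) Cyp11b1-high cells. Cyp11b2-high cells had 0 of 505 and 0 of 276, which set at 3 cells is 0.594% and 1.09%. The exact Clopper-Pearson upper limits are 0.728% and 1.33%. The 3 richest cells supplied 61.7% and 75.8% of the Aldh1a7 UMIs of Cyp11b1-high cells. In the 2000 to 4000 step of Cyp11b1 the share was 8.05% and 7.36%, and in cells above 4000 CPM it was 0 of 34 and 1 of 78. The library difference in the Aldh1a7 level of Cyp11b1-high cells thus rests on few cells.

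The pair lies on chromosome 19 of mm10 (GENCODE vM21). Aldh1a1 (ENSMUSG00000053279) spans 20492715 to 20643465 on the plus strand and Aldh1a7 (ENSMUSG00000024747) spans 20692953 to 20727562 on the minus strand. A gap of 49487 bases with no annotated gene separates them, and they run toward each other. The other protein-coding genes counted within 500 kb are Anxa1, an annexin, with no UMI in Cyp11b1-high cells, and Tmc1, a channel protein of hair cells, also with none. The levels seen for the pair were not shared by these neighbours.

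The letters before the start sites are shown because the pair was high in the same cell groups while Adh1 was graded over all of them. They are the 250 bases before each start from RefSeq (GRCm38.p6), on the gene's own strand from 5′ to 3′, and all 3 genes matched. Capitals mark the octamer ATGCAAAT and the CCAAT box. For Aldh1a1 the second of its annotated starts is printed (chr19:20601718-20601967, plus), followed by Aldh1a7 (chr19:20727557-20727806, minus) and Adh1 (chr3:138277335-138277584, plus).
Aldh1a1: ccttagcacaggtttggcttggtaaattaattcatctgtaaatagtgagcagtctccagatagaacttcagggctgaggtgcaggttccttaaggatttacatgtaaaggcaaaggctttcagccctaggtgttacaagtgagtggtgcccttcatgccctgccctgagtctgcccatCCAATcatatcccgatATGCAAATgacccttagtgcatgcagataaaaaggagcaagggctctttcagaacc
Aldh1a7: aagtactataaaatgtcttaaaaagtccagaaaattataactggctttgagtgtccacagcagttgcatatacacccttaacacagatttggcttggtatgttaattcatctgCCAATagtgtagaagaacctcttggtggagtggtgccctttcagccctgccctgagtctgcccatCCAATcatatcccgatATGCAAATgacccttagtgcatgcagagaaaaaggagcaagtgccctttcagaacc
Adh1: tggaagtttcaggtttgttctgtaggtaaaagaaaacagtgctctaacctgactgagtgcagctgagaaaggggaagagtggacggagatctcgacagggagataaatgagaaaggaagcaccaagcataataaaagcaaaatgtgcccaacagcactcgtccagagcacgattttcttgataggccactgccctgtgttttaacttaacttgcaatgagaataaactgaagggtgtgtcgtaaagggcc
The last 120 bases of Aldh1a1 and Aldh1a7 aligned with 89.5% identity and shared an unbroken run of 65 bases, while Adh1 and Aldh1a1 shared no run over 8 bases. In both paralogs the octamer began 56 bases and a CCAAT box 72 bases before the start, and Aldh1a7 had another CCAAT 137 bases before it. Searched on both strands in the same window of 32851 RefSeq promoters, the octamer was found in 1.60% and CCAAT in 33.9%. Neither is in the Adh1 window or in that of the first Aldh1a1 start, which had no run over 8 bases in common with Aldh1a7. AGGTCA (in 14.0% of promoters) and the longer CAAGGTCA that contains it (in 1.33%) were in none of the windows. The motifs were chosen after the letters were seen, the matches are a description, and reads of 3′ ends do not show which start was used.

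Reads of paralogs can be split or lost in counting, so the transcripts were compared where a 3′ kit reads. The longest coding transcripts of Aldh1a1 (2358 bases) and Aldh1a7 (2066 bases) aligned with 89.0% identity, and 7.49% of the 50-base windows of Aldh1a7 occurred exactly in Aldh1a1. In their last 500 bases the identity was 77.8%, the longest shared run was 24 bases, and 0 of 451 windows of 50 bases were shared exactly. The labels and headers do not say how reads matching both genes were counted.

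Cell by cell, Aldh1a7 was neither a fixed fraction of Aldh1a1 nor present wherever Aldh1a1 was. In 46 cortical cells with at least 20 UMIs of the pair, 23 in each library, Aldh1a7 made up 6.52% and 5.01% of the pair's UMIs, a ratio that does not depend on transcript length because each molecule is counted at its 3′ end. It had no UMI in 26 of the 46 cells. It was above 50% in 2 cells of library 1, which had 20 Aldh1a7 with 2 Aldh1a1 UMIs and 34 Aldh1a7 with 1 Aldh1a1 UMI. The highest share in library 2 was 36.6%, in a cell with 26 Aldh1a7 and 45 Aldh1a1 UMIs. Of the 29 and 17 cells with Aldh1a7, 16 and 13 also had Aldh1a1.

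**Figure D3:**
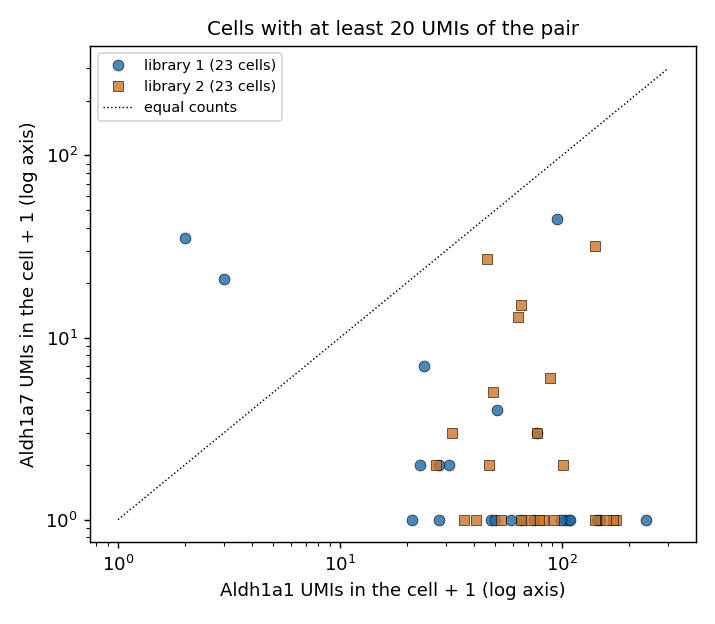
Aldh1a1 (horizontal) and Aldh1a7 (vertical) UMIs plus 1, on log axes, in the 46 cortical cells with at least 20 UMIs of the pair; the dotted line marks equal counts. The cells spread from 0 to 44 Aldh1a7 UMIs, and 2 cells of library 1 lie above the line.

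Adh1 had a different pattern, present in every cortical group and graded rather than confined. Adh1 (ENSMUSG00000074207) lies on chromosome 3 of mm10 at 138260991 to 138290698 on the plus strand. Cyp11b1-high cells held 160 CPM (146 to 176) in library 1 and 151 CPM (137 to 165) in library 2. Intermediate cells held 155 and 154 CPM, cells with both held 86.2 and 71.5 CPM, low cells held 72.4 and 73.6 CPM, and Cyp11b2-high cells held 44.5 (40.5 to 48.7) and 32.7 CPM (27.6 to 38.5). The leukocytes had no Adh1 UMI in library 1 and 1 in library 2. The libraries gave the same order except within the top pair and between cells with both and low cells.

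The Adh1 ratio of Cyp11b1-high over Cyp11b2-high cells was 3.61 (3.17 to 4.11) and 4.61 (3.82 to 5.60), or 2.03 ± 0.25 on the log2 scale (SD, n = 2 libraries). Over low cells the ratio was 2.22 (2.01 to 2.44) and 2.05 (1.83 to 2.29). Over intermediate cells it was 1.03 (0.930 to 1.15) and 0.981 (0.862 to 1.12), intervals that hold 1, so at these limits the upper groups did not differ beyond counting error. Halved limits gave 1.19 and 1.23 with intervals above 1, and doubled limits gave 0.677 (0.495 to 0.906) and 0.786 (0.645 to 0.952), so this order also depended on the limits. Cells with both and low cells had overlapping intervals in each library.

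Adh1 transcripts were spread over many cells. It was seen in 54.3% and 57.3% of Cyp11b1-high cells, 62.4% and 53.6% of intermediate cells, 43.1% and 35.4% of low cells and 37.2% and 26.4% of Cyp11b2-high cells. At 5000 UMIs per cell the shares were 38.5% and 39.6%, 39.7% and 41.2%, 22.8% and 22.2%, and 17.3% and 10.6% in the same order. The 3 richest cells supplied 14.7% and 12.0% of the UMIs of Cyp11b1-high cells, well under the shares for Aldh1a1. In all, 2098 (45.8%) and 741 (39.3%) cortical cells had Adh1, and no cell reached 50 UMIs.

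The step in Adh1 lay at lower Cyp11b1 than that of the paralogs. In cells with Cyp11b2 under 200 CPM, Adh1 stood at 63.6 and 61.9 CPM in the lowest of 7 steps of Cyp11b1 and at 108 and 162 CPM in the next, which ends at 250 CPM. The highest levels were 170 and 180 CPM between 1000 and 2000, and above 4000 CPM the level was 114 and 129 CPM, on 34 and 78 cells. Among cells with Cyp11b1 under 500 CPM, Adh1 was at 85.3 and 88.6 CPM where Cyp11b2 was under 50 CPM and at 50.7 and 47.5 CPM where Cyp11b2 was 50 to 100. It was at 41.1 and 32.5 CPM where Cyp11b2 was at least 400, with 43.3 and 26.0 CPM already reached at 100 to 200. Most of the fall along Cyp11b2 therefore occurred under the limit of 200 CPM.

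On chromosome 3 Adh1 sits in the alcohol dehydrogenase cluster. Its relatives Adh6a, Adh6b and Adh4 had no UMI in the 5 cortical groups. Adh7, a class IV retinol dehydrogenase 27.6 kb away, had 3.47 and 21.7 CPM in Cyp11b1-high cells, against 2.30 and 8.58 CPM in Cyp11b2-high cells. Adh5, a class III enzyme that clears formaldehyde as its glutathione adduct and lies 152.4 kb away, had 234 and 226 CPM, against 166 and 156 CPM. Of the alcohol dehydrogenases in the cluster, Adh5 was thus the other gene with a level above 100 CPM.

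The summed Adh1 level was lower in cells rich in Aldh1a1 than in cells of the same group with none. In Cyp11b1-high cells with at least 10 Aldh1a1 UMIs (14 in each library), Adh1 was at 91.2 CPM (57.2 to 138) and 17.5 CPM (4.76 to 44.7), against 165 CPM (149.9 to 182) and 170.0 CPM (154 to 187) in those with none. In intermediate cells, with 10 such cells per library, it was at 73.4 and 78.3 CPM, against 159 CPM in each library without Aldh1a1. The counting intervals did not overlap in these 4 pairs, although 1 cell held 13 of the 22 Adh1 UMIs of the Aldh1a1-rich Cyp11b1-high cells in library 1. The share of cells with an Adh1 UMI did not follow in every pair. It was 57.1% and 28.6% in Aldh1a1-rich Cyp11b1-high cells, against 55.9% and 60.4% in those with none, and 5 of 10 and 6 of 10 in Aldh1a1-rich intermediate cells, against 63.0% and 53.6%. Cyp11b1-high cells with 1 to 9 Aldh1a1 UMIs held 186 and 88.1 CPM of Adh1, above the level of cells with none in library 1 and below it in library 2. Over all cortical cells, Adh1 stood at 80.4 and 42.8 CPM in cells with at least 10 Aldh1a1 UMIs, against 82.9 and 85.8 CPM in those with none. Per cell over all cortical cells, the correlation of Adh1 with Aldh1a1 was near zero (Pearson's r -0.009 and -0.002 over 4584 and 1886 cells, as a description across cells of 1 library each).

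Aldh1a2, the other retinaldehyde dehydrogenase with appreciable counts, stood at 4.15 and 21.8 CPM in the Aldh1a1-rich Cyp11b1-high cells, against 73.1 and 69.7 CPM in those with none. In intermediate cells it stood at 108 and 28.0 CPM, against 120 and 135 CPM, and the intervals overlapped in library 1. The Aldh1a1-rich cells also differed in other genes, which were picked after their values were seen. Abcb1b was at 6827 and 8253 CPM in Aldh1a1-rich Cyp11b1-high cells, against 96.9 and 325 CPM in those with none, and Srd5a2, a steroid 5-alpha-reductase, was at 606 and 511 CPM, against 33.9 and 42.4 CPM. Mc2r, the ACTH receptor gene, was at 12.4 and 8.74 CPM, against 361 and 340 CPM. Median depth was 18013.5 and 15637 UMIs in the Aldh1a1-rich Cyp11b1-high cells, against 15540 and 13336 UMIs in those with none, and the part of depth or of other genes in the Adh1 difference was not tested.

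**Figure D4:**
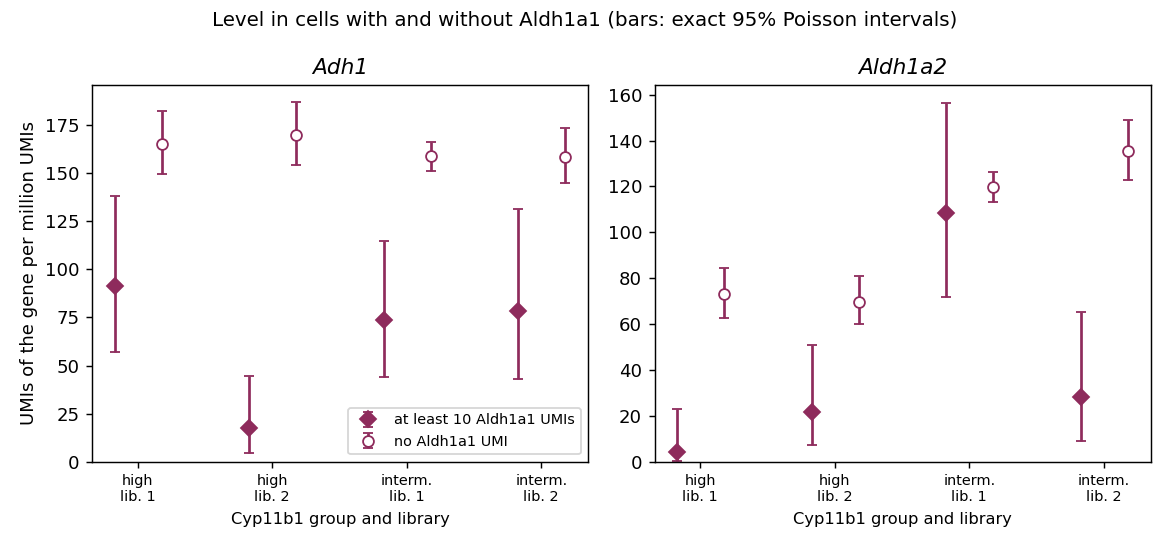
Adh1 and Aldh1a2 levels in CPM in cells with at least 10 Aldh1a1 UMIs (filled diamonds) and with none (open circles), in Cyp11b1-high and intermediate cells of each library, with exact 95% Poisson intervals. Adh1 lies lower in the Aldh1a1-rich cells in all 4 pairs, with 17.5 CPM in library 2 Cyp11b1-high cells as the lowest value.

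The genes most like each enzyme were ranked by Pearson's r of log-scaled levels across cortical cells, by the lower of the 2 libraries, over 10698 genes. For Aldh1a1 they were Mgst2 (r 0.701 and 0.818), a microsomal glutathione transferase, Mapk13 (0.604 and 0.611), a p38 kinase, Srd5a2 (0.600 and 0.659), Runx2 (0.593 and 0.698), a transcription factor, and Abcb1b (0.592 and 0.740). For Aldh1a7 they were Lgals3 (0.402 and 0.511), a galectin, Cabp1 (0.415 and 0.373), Runx2, S100a16 and Mgst2, and its r with Aldh1a1 was 0.282 and 0.490. For Adh1 the values were weak, from 0.298 and 0.305 for Akr1cl, an aldo-keto reductase, to 0.237 and 0.232 for Ighm, with Gstm1, Cdkn1c and Cyp11b1 between them. The points share library and depth, and no p is given. Runx2 and Mgst2 stood in the lists of both paralogs, and none of the 5 genes listed for Adh1 did.

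The rest of the retinoid pathway was then read from a fit over all genes, in which UMIs were summed per group and library and compared with edgeR's quasi-likelihood test with a library term. The question was whether other genes of the pathway differed between the cell groups in which the 3 enzymes do. The groups were cut from Cyp11b1 and Cyp11b2 UMIs of the same cells. Of 12070 genes tested, 2230 (18.5%) were higher and 2428 (20.1%) lower in Cyp11b1-high than in Cyp11b2-high cells at an adjusted p under 0.05, that is 38.6% in either direction. A retinoid list of 55 genes without the 3 enzymes had 21 tested, and 5 were higher and 4 lower, near that background. The list's median log2 difference was 0.12, with or without Dhrs3 set to its lower bound, against -0.02 over all genes tested. Without the library term 2 were higher and 2 lower, where 6.38% of all genes were higher and 5.65% lower.

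Aldh1a2 ran the other way from Aldh1a1. It had 66.3 and 66.5 CPM in Cyp11b1-high cells, against 122 and 164 CPM in Cyp11b2-high cells, a log2 difference of -1.16 ± 0.10 (SE, adjusted p = 1.7e-09 by edgeR). Aldh1a3 had 2.08 and 1.98 CPM, against 0.864 and 0 CPM, and did not pass (log2 difference 1.73 ± 0.72, adjusted p = 0.063 by edgeR). Cyp26a1 and Cyp26c1, which clear retinoic acid, had no UMI in these groups, and Cyp26b1 had 0 and 2.31 CPM in Cyp11b1-high cells, against 0 and 0.226 CPM in Cyp11b2-high cells. Clearance enzymes were thus too low for a test.

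Among the enzymes of retinol and retinaldehyde, Retsat, a retinol saturase, was higher at 27.4 and 25.4 CPM in Cyp11b1-high cells, against 11.8 and 8.35 CPM in Cyp11b2-high cells (log2 difference 1.29 ± 0.17, edgeR adjusted p = 2.3e-06), a call lost without the library term. Rdh14, a retinol dehydrogenase, was higher (0.51 ± 0.10, edgeR adjusted p = 0.00035), a call lost without the library term and in thinned cells, and Adh7 was higher by a log2 difference of 1.25 ± 0.34 (edgeR adjusted p = 0.0059), a call lost under 4 of 11 alternatives, DESeq2 among them. Dhrs3, which reduces retinaldehyde back to retinol, had 22 UMIs in Cyp11b1-high cells over both libraries and none in Cyp11b2-high cells, at least 18.4-fold higher with 3 UMIs set over the group. Rdh11 was lower (-0.57 ± 0.22, edgeR adjusted p = 0.048), and that call was lost under 5 of 11 alternatives.

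Of carriers, Fabp5, a fatty acid and retinoic acid carrier, was lower at 4.17 and 2.31 CPM in Cyp11b1-high cells, against 59.0 and 49.9 CPM in Cyp11b2-high cells (-4.13 ± 0.21, edgeR adjusted p = 2.9e-13). Rarres2, the chemerin gene known as retinoid-responsive, was higher at 12.5 and 7.25 CPM, against 0.480 and 0.451 CPM (4.30 ± 0.48, edgeR adjusted p = 1.8e-07). Nrip1, a corepressor of nuclear receptors, was slightly lower (-0.22 ± 0.07, edgeR adjusted p = 0.011), a call lost under 3 alternatives. The receptors Rara, Rarg, Rxra and Rxrb did not pass. The receptor most counted, Rara, had 25.4 and 26.7 CPM in Cyp11b1-high cells, against 25.5 and 33.2 CPM in Cyp11b2-high cells. Of the 34 untested list genes, 14 had no UMI in any cortical group.

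Relatives of the enzymes outside the retinoid list that passed the test were all higher in Cyp11b1-high cells. Of 20 other aldehyde and alcohol dehydrogenases, 14 were tested, and 9 were higher and 0 lower, against 18.5% and 20.1% of all genes. Their median log2 difference was 0.50, against -0.02 over all genes tested. Without the library term 4 were higher, against 6.38% of all genes, and DESeq2 called 7 higher and 0 lower, against 13.8% and 15.4% of all genes. At an unadjusted p under 0.05 edgeR gave 9 of the 14 genes in either direction, against 5617 of all 12070 genes tested.

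The largest log2 difference among them was in Adhfe1, an iron-dependent alcohol dehydrogenase, with 15.6 and 19.8 CPM in Cyp11b1-high cells, against 2.78 and 3.39 CPM in Cyp11b2-high cells (2.42 ± 0.26, edgeR adjusted p = 9.1e-08), but in thinned cells it was 1.31 and the call was lost (edgeR adjusted p = 0.091). Aldh1l1, a folate enzyme, had 71.9 and 92.9 CPM, against 20.8 and 16.7 CPM (1.97 ± 0.13, edgeR adjusted p = 3.4e-11). Aldh1b1, a mitochondrial relative of Aldh2, had 32.3 and 43.1 CPM, against 10.2 and 13.3 CPM (1.65 ± 0.16, edgeR adjusted p = 2.5e-08). These genes kept their calls without the cells that had an Aldh1a1 UMI. Adh5, Aldh6a1, Aldh7a1, Aldh9a1, Aldh3a2 and Aldh4a1 were higher by 0.43 to 0.62 on the log2 scale, the last pair with calls that 5 alternatives removed. The calls of Adh5, Aldh6a1 and Aldh9a1 were lost without the library term, and that of Aldh9a1 also in thinned cells. Aldh2, the mitochondrial acetaldehyde enzyme and the most counted of the list, had 882 and 904 CPM in Cyp11b1-high cells, against 913 and 831 CPM in Cyp11b2-high cells, and did not pass (-0.04 ± 0.07, edgeR adjusted p = 0.69).

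**Figure D5:**
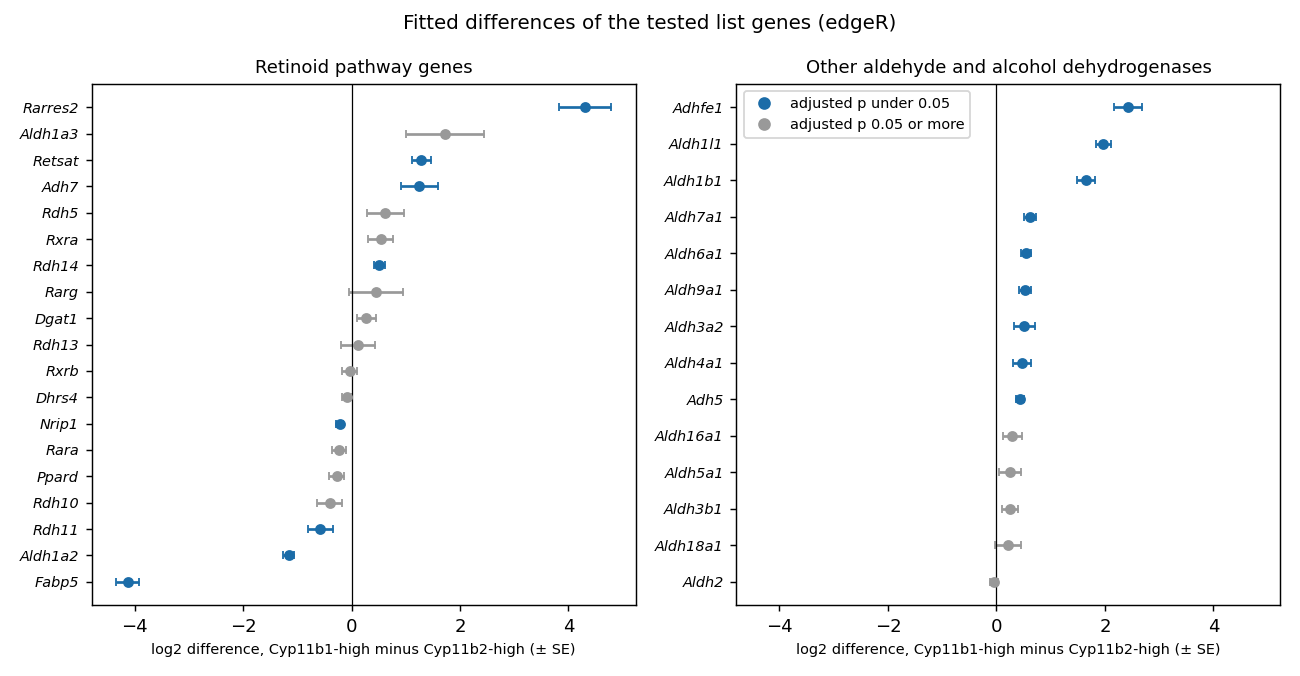
Log2 difference of Cyp11b1-high minus Cyp11b2-high cells (± SE, edgeR) for 19 of the tested retinoid pathway genes and 14 tested dehydrogenases. Blue points pass an adjusted p of 0.05; retinoid genes lie on both sides of 0, from Fabp5 at -4.13 to Rarres2 at 4.30, and no called dehydrogenase lies below 0.

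Within the cells low in Cyp11b2, Cyp11b1-high was also compared with intermediate cells in the same fit, where 899 genes (7.45%) were higher and 890 (7.37%) lower, 14.8% in either direction. Of the retinoid list 2 were higher and 3 lower. Rarres2 (1.27 ± 0.33, edgeR adjusted p = 0.010) and Retsat (0.60 ± 0.16, edgeR adjusted p = 0.012) were higher, while Fabp5 (-2.83 ± 0.25, edgeR adjusted p = 3.0e-08), Aldh1a2 (-0.91 ± 0.10, edgeR adjusted p = 7.6e-07) and Nrip1 (-0.31 ± 0.07, edgeR adjusted p = 0.0022) were lower. Of the 14 dehydrogenases 6 were higher and 0 lower, with 7 at an unadjusted p under 0.05, against 3295 of all 12070 genes. DESeq2 called 4 of them higher and 0 lower, against 4.94% and 3.86% of all genes. Of these 3 groups, Aldh1a2 was thus lowest where Aldh1a1 was highest, at 65.9 normalised CPM in Cyp11b1-high cells, against 121 in intermediate and 148 in Cyp11b2-high cells. Without the library term none of the retinoid genes and 1 dehydrogenase passed in this comparison, where 0.0746% of all genes were higher and 0.215% lower. At an unadjusted p under 0.05 that fit gave 3 retinoid genes and 5 dehydrogenases, against 1207 of all 12070 genes.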

How the data were processed

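Single-cell RNA sequencing was done on 2 libraries of sorted cells. The authors deposited raw UMI counts for each gene in each barcode, from Cell Ranger (version 3.1.0, per the file headers) and build mm10 per the submitters' processing notes. The headers record no normalisation and no correction for free RNA. The kit was version 3.1 per the labels' protocols. The settings behind the deposited barcodes are not stated.

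Barcodes under 1000 UMIs, under 500 genes or over 30% mitochondrial UMIs were removed, 148 and 276 of them. Scrublet (scanpy 1.11.5) scores then removed 203 and 42 doublets at 0.8% per 1000 barcodes. Cortical cells had at least 1000 CPM of Star, Cyp11a1 and Hsd3b1 and fewer than 3 leukocyte UMIs. Levels are summed UMIs of a gene per 1000000 summed UMIs (CPM), with exact Poisson intervals, and shares have exact Clopper-Pearson intervals. Intervals and floors of 3 UMIs cover counting error only.

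The fit used edgeR 4.0.16 (R 4.3.3) with glmQLFTest, filterByExpr, TMM scaling, terms for group and library, and Benjamini-Hochberg adjustment over 12070 genes, on sums of at least 20 cells. The group called both was too small for it. Residual degrees of freedom were 3, and the prior degrees of freedom, which come from the spread of all genes, were 18.91. The groups are paired because each library gives cells to all of them, so library is a term. DESeq2 1.42.0 was an alternative. The fit was tested on simulated counts whose spread was set by hand and not taken from the data. It called 80 of 100 genes changed 2-fold and 96 of 100 changed 4-fold, with 6 false calls among 11796 genes tested. Of 31057 features 31011 matched GENCODE vM21, and the 3 enzymes were among them.

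The enzymes, gene lists and limits were chosen with earlier results of these data known. Named genes were the 3 enzymes, list genes past the threshold or at 100 CPM in a group, and counted protein-coding genes within 500 kb. The 5 genes most alike each enzyme, over genes with at least 50 UMIs in each library, were also named. The split by Aldh1a1 UMIs and the steps of Cyp11b2 were added after the data were seen. Alternatives were RLE size factors, DESeq2, no low-count filter, no library term, halved and doubled Cyp11b limits, cells thinned to 5000 UMIs, at most 15% mitochondrial UMIs, doublets kept, at least 5000 UMIs and 1500 genes, each library alone, and, added later, cells with an Aldh1a1 UMI left out.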

Additional observations from a re-analysis of the deposited data

Results flagged for a closer look

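Barcodes outside the cortical groups carried UMIs of the 3 enzymes above the limit of 3 UMIs that a count of 0 allows. Cells that had steroidogenic transcripts together with at least 3 leukocyte UMIs held 45 Aldh1a7 UMIs in library 1, all in 1 cell, and 8 Adh1 UMIs. The 3 Aldh1a1 UMIs of these cells also lay in 1 cell. In library 2 such cells held 25 Aldh1a1 UMIs, all in 1 cell, and 8 Adh1 UMIs. Cells below both the steroidogenic limit and 3 leukocyte UMIs held 4 Aldh1a1 UMIs in library 2.

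Barcodes removed as doublets held 7 Aldh1a1 and 465 Adh1 UMIs in library 1, and 6 Aldh1a1 and 96 Adh1 UMIs in library 2. Barcodes below the cell filters held 11 Aldh1a1, 4 Aldh1a7 and 14 Adh1 UMIs in library 2. Adh1 stood at 86.6 and 135 CPM among removed doublets, inside the range of the cortical groups.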

How the results depend on the processing

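The direction of Aldh1a1, Aldh1a7 and Adh1 between Cyp11b1-high and Cyp11b2-high cells was the same under every alternative that gave a value. Leaving out 1 library gave log2 differences of 10.6 to 11.9 for Aldh1a1, 5.47 to 5.82 for Aldh1a7 as a lower bound, and 1.85 to 2.20 for Adh1. Doubled Cyp11b limits gave 6.09 for Aldh1a1, with library 1 as a lower bound, and 1.67 for Adh1, and no value for Aldh1a7, which was at or under 3 UMIs in both groups of a library. Halved limits gave a lower bound of 6.36 for Aldh1a7. Thinned cells gave lower bounds of 7.70 for Aldh1a1 and 3.41 for Aldh1a7. Without cells that had an Aldh1a1 UMI, the bound for Aldh1a7 was 3.56. The order of Cyp11b1-high and intermediate cells was less stable, and with doubled limits their ratio was 0.102 and 0.263 for Aldh1a1 and 0.171 for Aldh1a7 in library 2, below 1 where the main ratios were above it. These ratios were recomputed after the data were seen.

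Genes higher and lower in Cyp11b1-high than in Cyp11b2-high cells numbered 770 and 682 without the library term (no replicate block), 1318 and 1379 with doubled limits and 1166 and 1274 with thinned cells. Against intermediate cells, 35 were called without the library term, 448 with doubled limits, 822 with thinned cells and 1062 with DESeq2. Without the library term 4 of 21 retinoid genes and 4 of 14 dehydrogenases were called, beside 770 and 682 of 12070 genes. With thinned cells 5 of 14 dehydrogenases were called, beside 1166 and 1274 of 10231 genes. The causes were not tested, but thinning and doubled limits leave fewer UMIs or cells. Leaving out a library leaves no residual degrees of freedom, so it gave no counts. Aldh2, not called, had log2 differences of 0.013 with thinned cells and 0.014 without cells that had an Aldh1a1 UMI, the opposite sign to its main value. Of 19 list genes followed over 11 alternatives, Aldh1a2, Fabp5, Rarres2, Aldh1l1, Aldh1b1 and Aldh7a1 kept their calls in all. Dhrs3 kept its call in the 9 in which it was tested.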
